A study of Mus musculus with 2 samples.

Results

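In bladders of 14-day-old B6CASTF1/J males, dense clusters of distal accessible regions were described: 705 of 40312 distal open regions lay in 95 chains of 6 or more. The members were chosen by the peak calls of both libraries and by their spacing. Overlapping peaks of the libraries were joined, and the 73164 joined regions that held peaks from each library were called shared. Shared autosomal regions centred more than 2 kb from every annotated transcription start site (TSS) were called distal. Distal regions whose centres lay 5 kb or less apart were chained, and all regions of chains with at least 6 were kept. They made up 1.75% of the distal regions, and the other 39607 distal regions are the background for what follows.

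The data are DNase-seq, which sequences the ends left by the nuclease DNase I where DNA is open to it. The 2 libraries form 1 group, so that no treatments or genotypes were compared. The labels give a male for replicate 1 and 3 males for replicate 2. B6CASTF1/J mice descend from a cross between C57BL/6J and CAST/EiJ, a pair of inbred strains. All coordinates are on the C57BL/6J reference (build mm10, GRCm38). Whole bladder tissue holds urothelium, smooth muscle, stroma, vessels and nerves, and a weak region cannot be told apart from a region open in few of the cells.

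Regulatory elements away from promoters, such as enhancers, are bound by transcription factors that displace nucleosomes, and many genes that define a cell type have several of them close together. Groups of enhancers spaced within a few kilobases are often counted as 1 unit, which bears the name super-enhancer or stretch enhancer when it is long or strong. Other kinds of DNA can also give closely spaced open sites. Genes for transfer RNAs (tRNAs) are short, lie in groups and are transcribed by RNA polymerase III from promoter elements inside the gene, the A box and the B box. Satellite repeats beside centromeres repeat a short unit many times over.

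Whether a region acts as an enhancer was not measured, and 7 sequences show how the chains differ. The chain near Ctc1, a telomere maintenance gene, ran over a row of tRNA genes. From it 2 tRNA genes of the plus strand are shown whole, 5′ to 3′, with the core of the B box (GTTCNANNC, on the strand of the gene) in capitals. They lie at chr11:69040385-69040456 and chr11:69041826-69041897, and each was inside 1 region of the chain.
tRNA-Pro: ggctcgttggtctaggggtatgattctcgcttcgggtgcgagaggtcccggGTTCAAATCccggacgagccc
tRNA-Trp: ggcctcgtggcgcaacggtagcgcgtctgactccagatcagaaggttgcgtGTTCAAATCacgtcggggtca

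From 3 chains without tRNA genes, the region outside UTRs with the highest mean signal over both libraries is shown on the plus strand, with the matches to 22 factor motifs in capitals. The region near Krt8 (chr15:101977421-101977680) held 2 matches to the AP-1 motif (TGANTCA) and 2 to the KLF and SP motif (GGGNGTGG). The region in an intron of Kdm6b (chr11:69411181-69411380) held 1 KLF and SP match, on the minus strand. The region between genes near Lrrc74a (chr12:86801241-86801480) held 1 AP-1 match, 1 TEAD match (GGAATG, on the minus strand) and 1 match to the E-box CAGCTG.
Krt8: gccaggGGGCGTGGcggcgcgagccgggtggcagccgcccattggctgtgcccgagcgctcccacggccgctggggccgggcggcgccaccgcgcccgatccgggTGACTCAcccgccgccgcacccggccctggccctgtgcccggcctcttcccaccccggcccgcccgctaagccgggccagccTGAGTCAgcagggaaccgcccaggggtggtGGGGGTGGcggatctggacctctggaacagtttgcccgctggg
Kdm6b: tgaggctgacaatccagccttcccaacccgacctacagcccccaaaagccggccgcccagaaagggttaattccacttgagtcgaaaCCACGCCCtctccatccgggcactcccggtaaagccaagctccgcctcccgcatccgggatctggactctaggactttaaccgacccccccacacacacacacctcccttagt
Lrrc74a: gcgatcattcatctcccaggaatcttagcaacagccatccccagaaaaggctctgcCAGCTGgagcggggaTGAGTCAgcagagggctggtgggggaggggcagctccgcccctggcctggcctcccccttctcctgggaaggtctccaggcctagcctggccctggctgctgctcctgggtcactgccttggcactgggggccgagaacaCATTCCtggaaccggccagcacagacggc

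The chain at the start of chromosome 3 is shown by stretches of its regions 3 and 5 (chr3:3000750-3000942 and chr3:3006211-3006404, plus strand). They aligned over 194 positions with 85.1% identity and 1 gap. The heptamer CACAGTG is in capitals on either strand, and recurs 7 times in the stretch of region 3 and 6 times in that of region 5.
Region 3: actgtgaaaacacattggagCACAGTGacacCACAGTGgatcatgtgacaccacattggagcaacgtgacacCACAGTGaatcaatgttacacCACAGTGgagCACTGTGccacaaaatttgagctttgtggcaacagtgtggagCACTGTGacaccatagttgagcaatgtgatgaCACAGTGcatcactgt
Region 5: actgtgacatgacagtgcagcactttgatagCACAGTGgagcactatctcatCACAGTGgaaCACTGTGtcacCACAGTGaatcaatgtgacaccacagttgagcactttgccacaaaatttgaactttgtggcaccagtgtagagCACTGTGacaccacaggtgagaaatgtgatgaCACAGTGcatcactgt

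Most chains were small. Of the 95 chains, 50 held 6 regions, 21 held 7, 8 held 8, 4 held 9, 8 held 10 and 4 held more (11, 20, 22 and 25). The median chain spanned 9940 bp, from 3240 to 25759 bp, and all chains together covered 999 kb. Neighbouring centres lay a median of 972.5 bp apart, with quartiles of 573.5 and 2354 bp and extremes of 240 and 4989 bp. The nearest distal region outside a chain lay 5192 bp away, and at 7 chain ends it was under 6 kb away. Just under the limit of 6, there were 124 chains of 5 regions. Their 620 regions had a median signal of 1.32 in replicate 1 and 1.02 in replicate 2, while the 300 regions of chains of 6 had 1.39 and 1.09. The member closest to a TSS was 2025 bp from it, and 44 members lay within 3 kb of one.

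Peak signal is the authors' density per peak, and a region was given its strongest peak in each library. In replicate 1 the members ranged from 0.0573 to 10.96 and in replicate 2 from 0.0799 to 9.09. Values came in steps of 0.00521 in replicate 1 and 0.00799 in replicate 2, and the median member stood at 250 steps in replicate 1 and at 131 in replicate 2. The weakest members stood at 11 and 10 steps. If 1 step were 1 cut, which is not recorded, counting error alone would place the median member between 1.15 and 1.47 (replicate 1) and between 0.876 and 1.24 (replicate 2), as exact Poisson 95% bounds.

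The chain with the highest summed signal lay over the 5′ part of Kdm6b, a histone demethylase gene, and upstream of it (chr11:69408581-69420520). Its 11 regions summed to 45.6 in replicate 1 and 37.0 in replicate 2. Along the chain, region 5 in an intron had 10.4 and 6.48, region 8 had 8.52 and 6.13, region 9 had 6.67 and 6.64, and region 10 had 6.86 and 5.80 in replicates 1 and 2. The other 7 regions stayed at or under 3.90 in replicate 1 and 3.13 in replicate 2, so that 4 sites carried most of the signal in both libraries. All 11 regions lay within 2 kb of a RefSeq transcript start that the GENCODE annotation behind the distal rule lacks, and with RefSeq starts added the chain did not qualify.

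The chain 16102 bp from the TSS of Krt8, a keratin of simple and transitional epithelia, came next in summed signal (chr15:101973741-101988380). It lies between genes, and the TSS of Krt18, whose product pairs with Krt8 in filaments, was 39800 bp away. Its 7 regions had 9.32, 4.06, 9.47, 5.20, 5.21, 7.28 and 4.02 in replicate 1, and 7.38, 3.21, 8.62, 3.97, 3.93, 4.93 and 2.90 in replicate 2, in order along the chromosome. Every one of them was thus above the 90th percentile of the other distal regions, which was 2.99 in replicate 1 and 2.08 in replicate 2. The promoter peaks of Krt8 itself were 3.66 in replicate 1 and 2.40 in replicate 2, under the chain's median of 5.21 and 3.97.

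A second keratin chain lay 22498 bp from the TSS of Krt80, a type II keratin gene, in introns of the antisense RNA gene Gm35853 (chr15:101327381-101342080). Its 7 regions summed to 31.7 in replicate 1 and 21.3 in replicate 2. The region at the chain's start had 9.63 in replicate 1 and 6.92 in replicate 2, the weakest 1.46 and 0.959. The chain in and beyond Morn1 (chr4:155130041-155150840) had 8 regions over 20800 bp that summed to 28.4 and 23.9. Its strong regions were at the ends. The first had 5.31 in replicate 1 and 2.97 in replicate 2, the last but one 7.20 and 4.78, and the last 6.82 and 7.22.

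**Figure D1:**
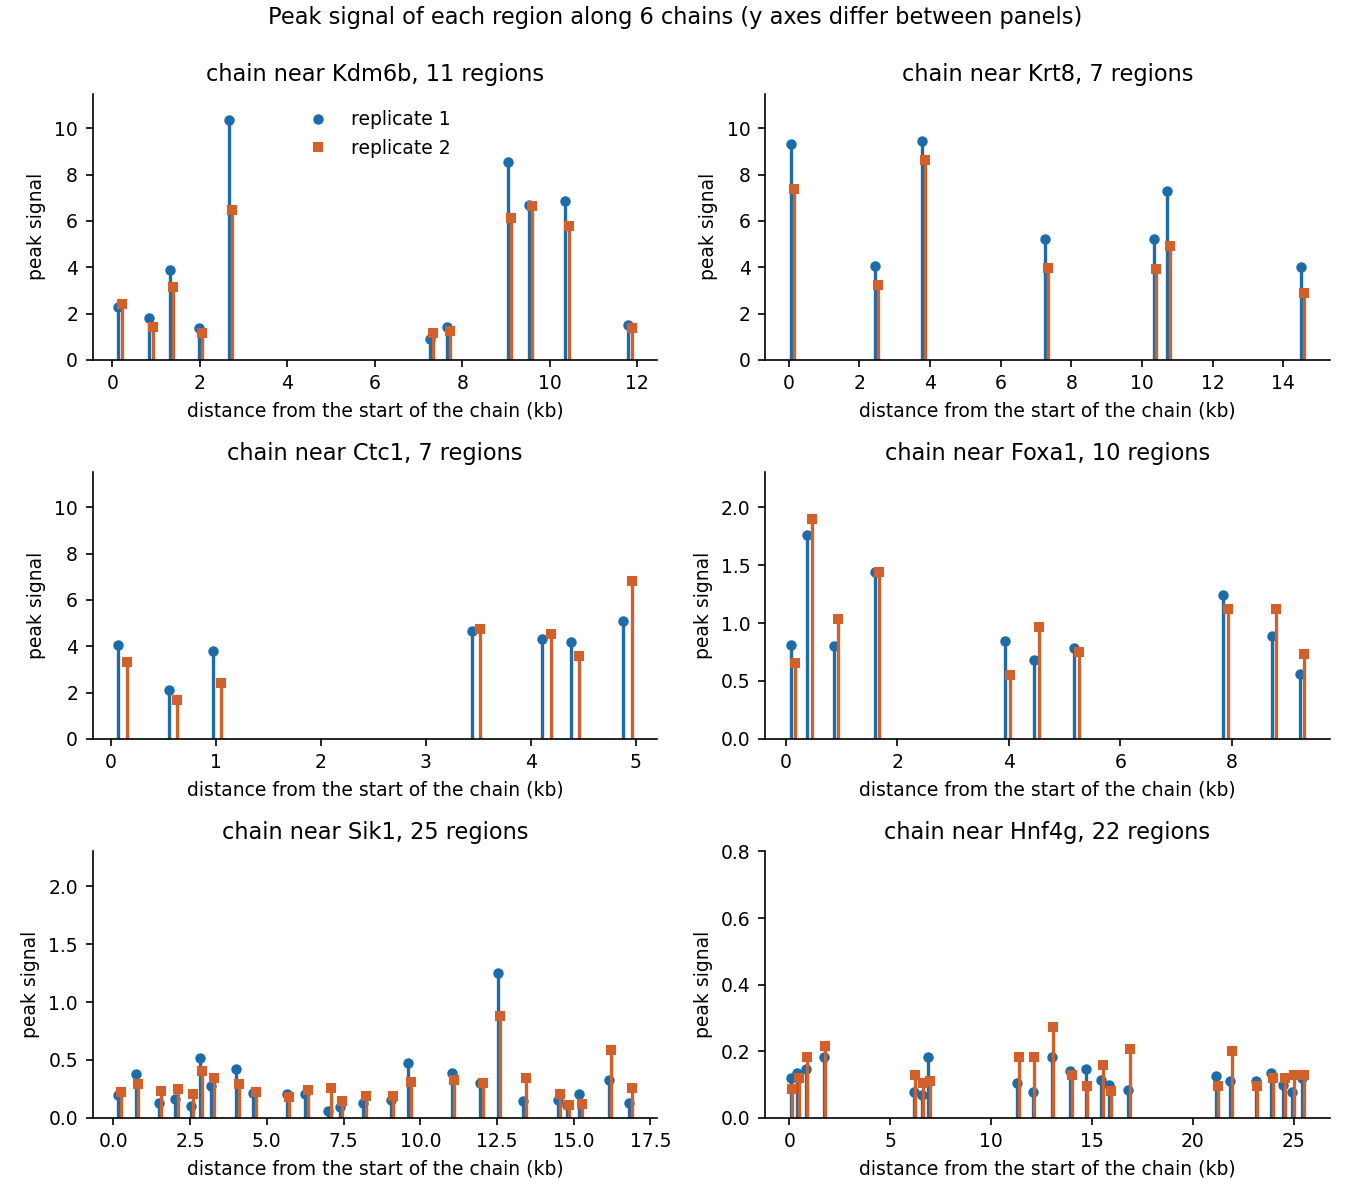
Peak signal of every region in 6 chains, with the distance from the start of the chain in kb on the x axis and the deposited peak signal on the y axis, whose range differs between panels. Circles are replicate 1 and squares replicate 2. Regions near Kdm6b differ from 0.911 to 10.4 in replicate 1, all 7 near Krt8 are above 2.90 in both libraries, and those near Hnf4g stay at or under 0.272.

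Some of the larger chains lay at genes of transcription factors. The chain over Tbx2 and the overlapping Gm11444 had 10 regions (chr11:85836844-85846839). Tbx2 encodes a T-box factor of the mesenchyme of the urinary tract. The strongest region there had 8.50 in replicate 1 and 5.80 in replicate 2, while the chain's median was 0.940 and 0.959. At Foxa1, a forkhead factor gene of the urothelium, 10 regions ran from 2182 bp off the TSS through the gene and past its end (chr12:57534565-57543939). They were even and moderate, between 0.557 and 1.76 in replicate 1 and between 0.552 and 1.90 in replicate 2. Their GC content was high, with a median of 62.3%.

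The chain in introns of Gse1 and the overlapping Gm20388 had 10 regions, the strongest at 6.22 in replicate 1 and 3.94 in replicate 2. The nearest TSS of a protein-coding gene was 105567 bp away from it. The chain in Atp6v0a1, a proton pump subunit gene, beside Naglu, a lysosomal enzyme gene, had 10 regions with a median of 2.48 and 2.04. At Tnrc18 the 10 regions summed to 23.7 and 19.7. There 96.1% of the span in replicate 1 and 84.4% in replicate 2 lay in stretches at a false discovery rate (FDR) of 0.05 or lower, against a median over chains of 26.0% and 19.9%, and all 10 regions were within 2 kb of a RefSeq start that is not a tRNA gene. The chains near Bahcc1 (9 regions, sums of 25.6 and 22.2) and Atp23, a mitochondrial protease gene (9 regions, sums of 20.998 and 16.8), lay between genes.

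Near Lrrc74a, a leucine-rich repeat gene, there were 2 chains, of 10 and of 6 regions. The larger held the member of highest mean rank, shown above, with 10.5 in replicate 1 and 9.09 in replicate 2. The nearest TSS of a protein-coding gene lay 49814 bp from that chain, and no promoter peak of Lrrc74a was called in either library. By mean rank the next members were an intronic region of Creb3l1, a gene of the unfolded protein response (10.96 and 8.32 in replicates 1 and 2), region 3 near Krt8, a region near Ptma (9.42 and 7.40), the start of the Krt80 chain and region 1 near Krt8. Region 5 of Kdm6b, a region of a smaller chain in Bahcc1 (7.48 and 7.42), a region near Eef2k (7.15 and 7.91) and a region near Svil (8.25 and 6.77) completed the 10 strongest.

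tRNA genes overlapped most regions of 4 chains. RefSeq, unlike the annotation that set the distal rule, lists 386 autosomal tRNA genes, and 26 of them (6.74%) lay in the span of a chain. A tRNA gene was overlapped by 23 of the 705 members (3.26%), against 99 of the 39607 other distal regions (0.250%). In 4 chains at least 50% of the regions overlapped one, 22 of 31 regions in all. These chains, and those of weak signal below, were grouped after their values were seen. In the chain near Ctc1 (chr11:69036881-69041900) each of the 7 regions covered 1 of 7 tRNA genes. Their signals ran from 2.09 to 5.09 in replicate 1 and from 1.68 to 6.81 in replicate 2, and neighbouring centres were a median of 490 bp apart. The chain near Olfr1423, an olfactory receptor gene, held 8 tRNA genes in its span and had 6 of 10 regions on them. The chain near Hfe2, the hemojuvelin gene, had 5 of 8 regions on tRNA genes, and the chain near Dhx37, an RNA helicase gene, 4 of 6. In the chain near Hfe2 the tRNA-His gene was in the strongest region, with 6.49 in replicate 1 and 7.27 in replicate 2. Beside these, the region near Eef2k among the 10 strongest covered a tRNA-Leu gene, the only one in its chain.

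The 23 members at tRNA genes had a median signal of 3.80 in replicate 1 and 3.31 in replicate 2. The 682 members without one had 1.27 and 1.02. The 99 other distal regions at tRNA genes had 2.55 and 2.29, and those without 1.07 and 0.791. All 23 held at least 1 footprint in each library, and all 23 held a footprint of replicate 1 that overlapped one of replicate 2. A footprint is a short stretch, deposited by the authors, with fewer cuts than its surroundings. Among all other distal regions 70.2% held such an overlapping footprint. The 23 members had a median observed to expected CpG ratio of 0.826, against 0.248 in the other distal regions, and none had an AP-1 match in the central 200 bp. The 99 regions at tRNA genes outside chains were alike in this, with a CpG ratio of 0.826, an overlapping footprint in 96.0% and an AP-1 match in 6.06%. The B box core lay on the strand of the gene in all 24 tRNA genes inside chain regions and in 354 of the 386 autosomal ones (91.7%). Searched on both strands over whole regions, it was in 13.2% of all members and in 7.36% of the other distal regions, so that its letters alone are common.

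**Figure D2:**
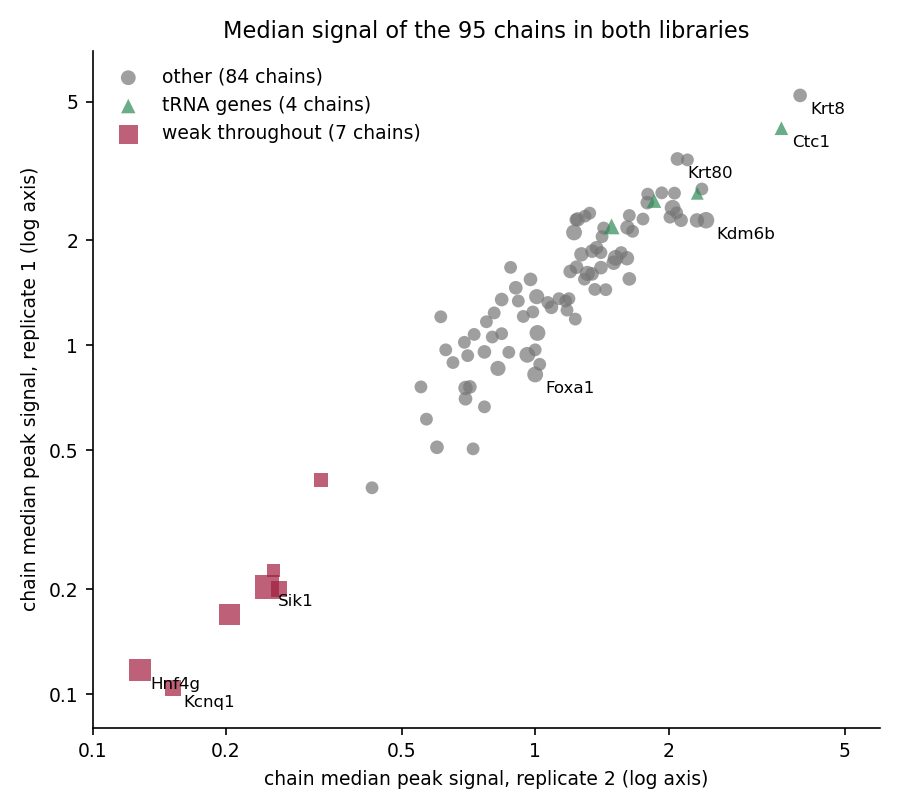
Median peak signal of each of the 95 chains, replicate 2 on the x axis and replicate 1 on the y axis, both log axes, with marker size growing with the number of regions. Triangles are the 4 chains at tRNA genes, squares the 7 chains called weak by their median (labelled weak throughout) and circles the other 84. The chain near Krt8 is highest, at 5.21 in replicate 1 and 3.97 in replicate 2, and the chain near Kcnq1 has the lowest replicate 1 median, 0.104.

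The 3 chains with most regions were among the weakest. The 7 chains called weak had a median below the 10th percentile of the other distal regions in both libraries (0.463 in replicate 1 and 0.424 in replicate 2), and held 99 regions. They include the 25 regions near Sik1, a kinase gene (chr17:31861601-31878640), the 22 at the start of chromosome 3, nearest to Hnf4g (chr3:3000042-3025800), and the 20 near Vmn1r2, a vomeronasal receptor gene (chr4:3053962-3072880). Their medians were 0.203, 0.117 and 0.169 in replicate 1 and 0.248, 0.128 and 0.204 in replicate 2, in that order. Regions were wide there, a median of 400, 332 and 470 bp, against 200 bp in the other distal regions. The share of the span at an FDR of 0.05 or lower was 85.9%, 52.5% and 61.0% in replicate 1 and 82.4%, 51.9% and 38.4% in replicate 2. The other weak chains were those near B4galt5 (10 regions), Kcnq1 (9), Plec (7) and Mxd4 (6). Weak refers to the chain median, and single regions could be stronger. The strongest region had 1.25 in replicate 1 and 0.879 in replicate 2 near Sik1, and 1.45 and 1.04 near B4galt5.

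The chromosome 3 chain began 41 bp after the first base of chromosome 3 that the reference gives, and the chromosome 4 chain 3961 bp after that of chromosome 4. In no other chain was this distance under 2155520 bp. The nearest TSS of a protein-coding gene, that of Hnf4g, was 482230 bp from the chromosome 3 chain. All 22 regions of that chain aligned to another region of it at 70% identity or more over at least 50% of their length, and 18 of the 20 near Vmn1r2 did the same, while none near Sik1 did. Near Sik1, 11 of the 25 regions lay within 2 kb of a RefSeq start. The same-strand alignments between regions of the chromosome 3 chain, of which a pair of regions could give several, had up to 87.5% identity. Their median was 73.4%, with alignments under 70% left out by the search. None of its regions had a copy elsewhere on the reference chromosomes at 95% identity over 80% of its length. Scaffolds of the assembly outside the chromosomes were not searched. Copies in sequence that the reference does not give, such as that before the first base of a chromosome, could not be found either. The heptamer CACAGTG, picked from these sequences, occurred at least 3 times in all 22 regions on chromosome 3 and in 18 of the 20 on chromosome 4. It did so in 0 of 25 near Sik1 and in 17 of the 39607 other distal regions (0.0429%). Soft-masked repeats covered a median of 36.3% and 49.1% of the bases of the regions on chromosomes 3 and 4, and 6.43% near Sik1. No source used here says how reads that fit many copies of a repeat were handled, and its part in these signals was not tested.

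The weak chains also differed in where they lay. All 9 regions near Kcnq1 were in the exon of Kcnq1ot1, the antisense RNA of that imprinted locus, and had between 0.0625 and 0.323 in replicate 1 and between 0.112 and 0.240 in replicate 2. All 7 in Plec, the plectin gene, were in its exons. Of the 99 regions in the weak chains 50.5% in replicate 1 and 39.4% in replicate 2 held a footprint, against 95.4% and 86.7% of the other distal regions. Replicate 2 was relatively the higher library there. A member needed a peak in both libraries, also in replicate 2 with its fewer peaks, and the part of this was not tested. With each library divided by its median over shared regions, the log2 ratio of replicate 1 to replicate 2 had a median of -0.58 in the weak chains, -0.12 in the 84 chains that were neither weak nor at tRNA genes, and -0.03 in the other distal regions.

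**Figure D3:**
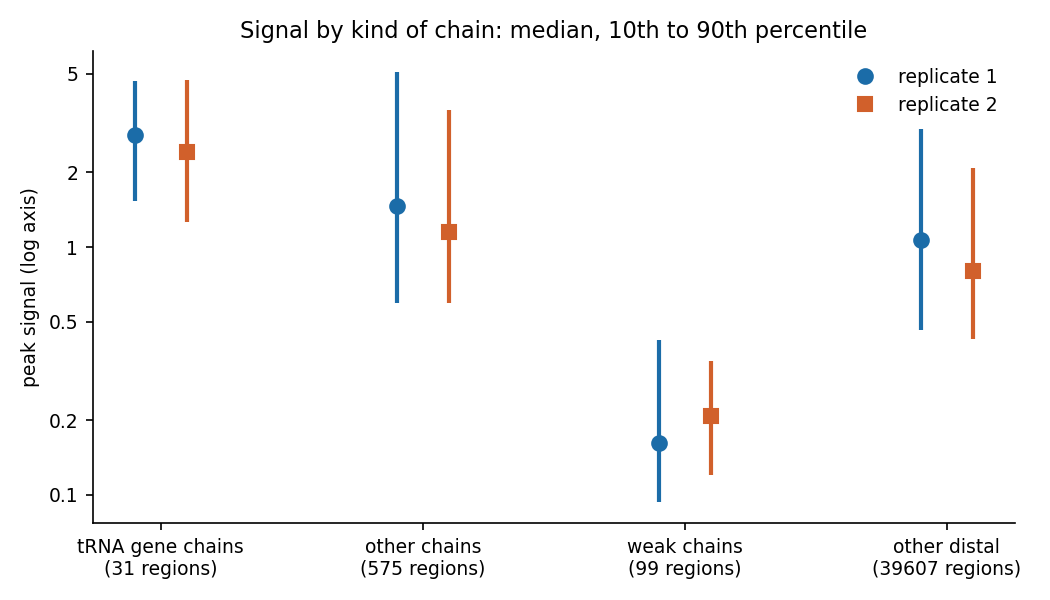
Peak signal of the regions in chains at tRNA genes, in the other chains, in weak chains and in the other distal regions, on a log axis. Markers are medians and bars run from the 10th to the 90th percentile, with circles for replicate 1 and squares for replicate 2. Medians are 2.82 and 2.43 at tRNA gene chains, 1.46 and 1.15 in other chains, 0.161 and 0.208 in weak chains, and 1.07 and 0.799 in the other distal regions, in replicates 1 and 2.

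Taking all members, the chain regions were moderately stronger than the other distal regions. Their median signal was 1.30 in replicate 1 and 1.05 in replicate 2, against 1.07 and 0.799. Without the 3 largest chains it was 1.44 and 1.14. No test was made, because peak calls of the same libraries chose the members. The median signal was higher in each longer run already below the limit of 6. In replicate 1 it was 1.00 in runs of 1 and 1.32 in runs of 5, and in replicate 2 it was 0.743 and 1.02. The share of regions with a footprint was 87.2% in replicate 1 and 82.7% in replicate 2 in the chains, against 95.4% and 86.7% in the other distal regions. Without the 3 largest chains it was 92.0% and 87.9%, so that in replicate 2 the order of the groups depends on those chains.

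**Figure D4:**
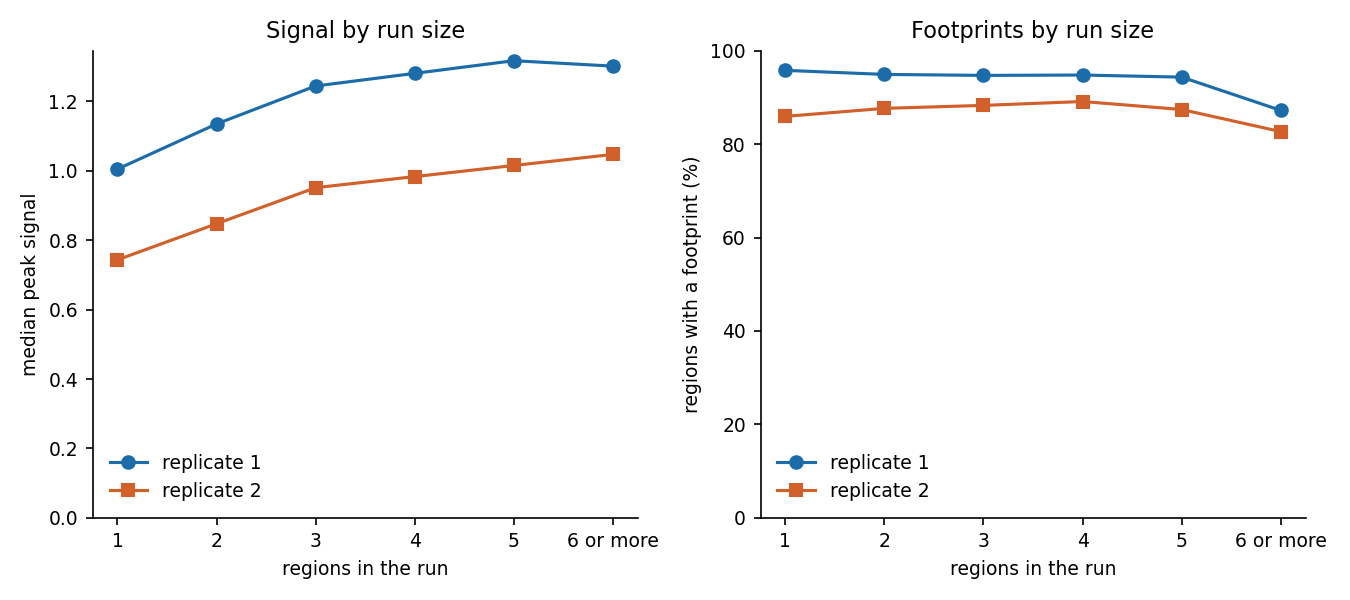
Median peak signal (left) and share of regions with at least 1 footprint (right) by the number of regions in a run of distal regions 5 kb or less apart, for replicate 1 (circles) and replicate 2 (squares). The median signal is 1.00 and 0.743 for lone regions and 1.30 and 1.05 in runs of 6 or more, where the footprint share is lowest in both libraries.

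Regions within 1 chain were far from equal, yet both libraries mostly had the same region on top. The strongest region of a chain exceeded the weakest by a median of 6.58-fold in replicate 1 and 4.51-fold in replicate 2. Chain membership held 64.7% of the variance of the log2 signal in replicate 1 and 63.4% in replicate 2. These shares are over all members, weak chains included, and grouping alone would put some of the variance between chains. In 80 of the 95 chains the same region was the strongest in both libraries. Over all 95 chains the strongest region stood first or last in 32 chains in replicate 1 and in 33 in replicate 2, where 29.1% of chains would have it there if every position were alike. Another 149 regions inside the chain spans were called in replicate 1 and not in replicate 2, and 36 the other way round. Replicate 1 has 139821 peaks and replicate 2 has 82225. With equal peak numbers in both libraries, 65 chains with 453 regions qualified. The counts from each library alone also drop the need for peaks of both, so that they do not show the part of this difference.

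Members lay more often between genes than other distal regions did. Of the members 61.8% were intergenic, 30.2% intronic and 7.94% exonic, against 46.3%, 48.3% and 5.43% of the other distal regions. Without the 3 largest chains, whose 67 regions were all intergenic, the intergenic share of members was 57.8%. Chains were found on 18 of the 19 autosomes, none on chromosome 13. Chromosome 11 held 11 chains with 89 regions, which is 12.6% of the members, against 7.29% of all distal regions. The GC content had a median of 54.9% in the members and 52.4% in the other distal regions, and the CpG ratio exceeded 0.6 in 14.3% and 6.35%. A RefSeq start other than that of a tRNA gene was within 2 kb of 85 of the 705 members, in 23 chains. It was within 2 kb of 2635 of the 39607 other distal regions, a lower share than in the members.

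With the looser peak list, the shares of regions with a match in the central 200 bp differed by at most 4.90 percentage points over 22 motifs. AP-1 sites, bound by JUN and FOS dimers, were in 13.3% of the members and 15.7% of the other distal regions. GATA matches (AGATAA) were in 4.96% and 8.63%, RUNX matches (TGTGGTT) in 2.41% and 4.56%, and TEAD matches in 12.3% and 14.8%. KLF and SP matches were in 14.8% and 9.85%, and ETS matches (CCGGAAG) in 3.97% and 1.80%. Both of these motifs are rich in G and C, as the members are, and the part of base composition was not tested. CTCF matches were in 8.09% of the members and 9.94% of the other distal regions. Over whole regions, which are wider in the chains, the TEAD and RUNX shares of members were no longer the lower ones. For RUNX this rested on the 3 largest chains, where 13 of 67 regions held a match. Without them the share was 3.45%, against 4.91% in the other distal regions. The GATA difference of -3.66 percentage points was -1.75 over whole regions. With the stricter peak list the AP-1 share was 0.0553 percentage points higher in the chains, the ETS share 0.43 points higher and the KLF and SP share 1.87 points higher, while the CTCF difference was -6.69 points.

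**Figure D5:**
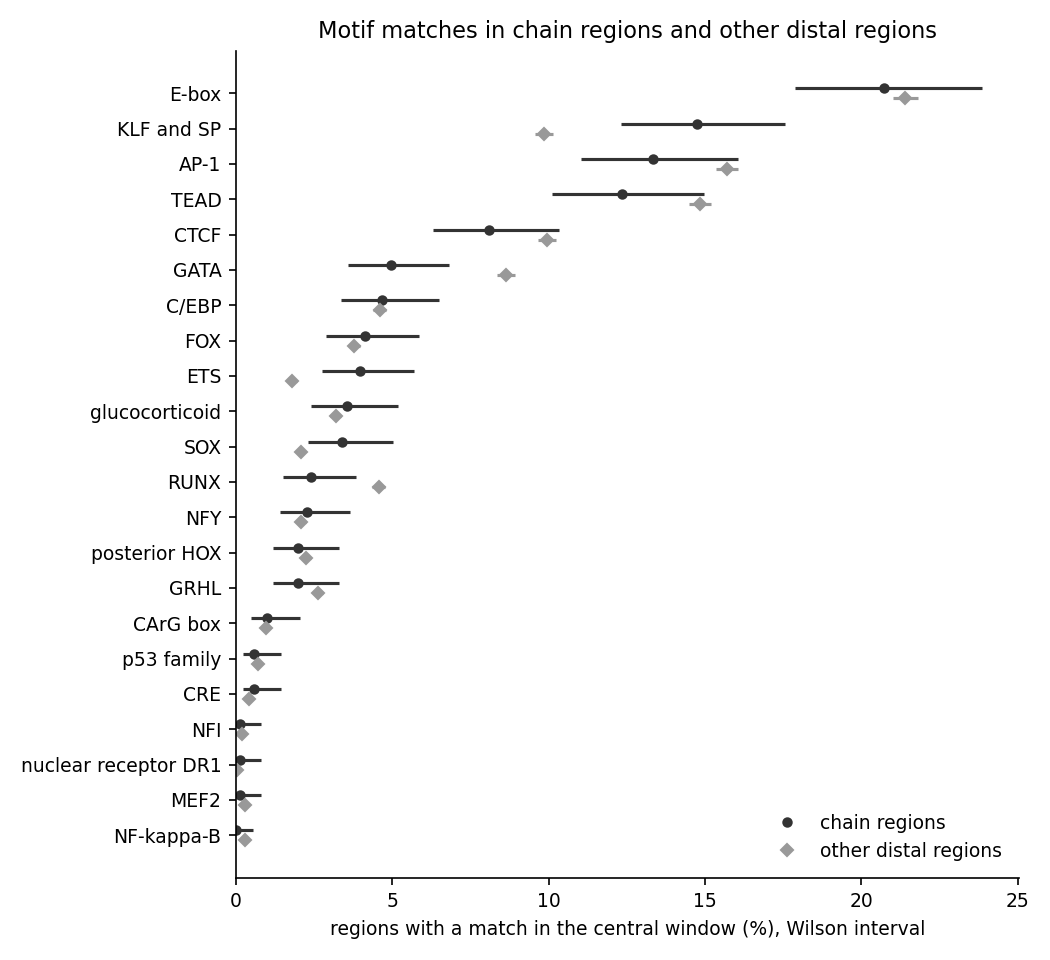
Share of regions with a match to each of 22 motifs in the central 200 bp, for chain regions (dark circles) and other distal regions (grey diamonds), with Wilson 95% intervals that treat regions as independent. KLF and SP matches are more frequent in chain regions, 14.8% against 9.85%, and GATA matches less frequent, 4.96% against 8.63%.

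Few genes on lists for cell types and other classes had a chain nearby, yet a larger share of them than of all genes, which was not tested. A gene was counted where a chain overlapped it or ended 50 kb or less from one of its TSSs, as was true of 209 of 20807 autosomal protein-coding genes (1.00%). Of 12 gene lists with 267 autosomal genes, 8 genes in all (3.00%) had a chain nearby. Of 34 urothelial genes these were Foxa1, Krt8 and Krt18, of which the keratins share 1 chain. Of 32 stromal genes it was Osr1, a zinc-finger gene of urogenital mesenchyme, whose 7 regions summed to 7.95 in replicate 1 and 7.66 in replicate 2. Of 20 immediate-early and stress genes they were Junb, an AP-1 subunit (6 regions, 19.3 and 14.4), and Btg2, an antiproliferative gene (6 regions, 16.8 and 14.2). None of the 31 smooth muscle genes had one, nor any of the 20 endothelial, 15 nerve and glia, 20 immune or 17 nuclear receptor genes. At the share of 1.00% over all genes, lists this small would mostly hold 0. A chain distance of 10 kb gave 3 smooth muscle, 3 endothelial, 1 nerve and glia, 0 immune and 2 nuclear receptor genes. The share over all genes was then 2.53%.

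Lists of genes of other tissues gave counts of 0 or 1. The striated muscle gene Tnnt2, 1 of 20 in its list, lay 41454 bp from a chain in its neighbour Tnni1, and no promoter peak of Tnnt2 was called in either library. The hepatocyte and brain lists, of 20 genes each, had 0. With 0 to 3 genes a list, these counts show no order between the lists. Where RefSeq starts were added to the distal rule, the chains near Osr1 and Btg2 no longer qualified, and 5 of the 267 listed genes had a chain nearby, against 161 of all 20807 genes (0.774%).

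The genes nearest to the chains mostly had open promoters themselves. Of 93 such genes 77 (82.8%) had a promoter peak within 1 kb of a TSS in both libraries, with medians of 5.98 in replicate 1 and 5.01 in replicate 2. Of all 20807 genes 67.7% had one, with medians of 5.12 and 4.30. The nearest TSS was a median of 16426 bp from the chain, within 10 kb for 38 chains and over 50 kb for 18, and 41 chains overlapped a protein-coding gene. Nearness does not show which gene a region acts on, and no expression was measured.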

How the data were processed

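Peaks, footprints and FDR stretches were deposited for each library separately, called without pooling on mm10, per the notes deposited with the samples. No source used here names the authors' tools. Each deposited peak carries a signal, the authors' density, whose normalization is not stated. The deposited FDR track gives the authors' p-value type, an FDR of 0.05 or lower. Footprints carried a constant p-value of 0.01 from the authors and were used as positions.

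The looser peak list of each library was used. TSSs, exons and UTRs came from GENCODE M21, tRNA genes and further starts from the RefSeq annotation of GRCm38.p6, and sequences from that assembly. Motifs were searched on both strands. Region copies and likeness came from blastn 2.17.0, overlaps from bedtools 2.31.1, the rest from Python 3.11.15 with pandas 2.3.3, NumPy 2.4.6, SciPy 1.17.1, pysam 0.24.0 and Matplotlib 3.10.9. The chaining was tested on simulated peaks.

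The members, gene lists, motifs and alternatives were chosen with earlier results of these data known. The text names the 15 chains with most regions, the 5 of highest summed signal, the 10 members of highest mean rank and the listed genes with a chain nearby. A chain, a listed gene and a sequence that these rules pick are not reported here. The tRNA and weak chains outside these, the RefSeq comparison and the heptamer were chosen after seeing the values. With 1 group of 2 libraries no test was made.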

Additional observations from a re-analysis of the deposited data

How the results depend on the processing

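Chain numbers depend on the settings. Against 95 chains, 705 regions and a share of 1.75% of distal regions, the stricter peak list gave 22 chains, 163 regions and 0.726%, a chain distance of 2500 bp gave 33, 256 and 0.635%, and one of 10 kb gave 255, 1909 and 4.74%. At least 5 regions gave 219, 1325 and 3.29%, and at least 8 gave 24, 258 and 0.640%. From 1 library alone there were 172 chains, 1436 regions and 3.20% without replicate 1, and 812, 6771 and 7.83% without replicate 2. A region then needed no peak of the other library, so that nearly all members were bound to stay. That all 95 chains had regions in both of these sets is thus no support for them. Equal peak numbers gave 453 regions and 1.38%, an overlap of 50% of the shorter peak 1.62%, TSS distances of 1 and 5 kb 2.31% and 1.53%, and protein-coding TSSs alone 2.295%, with chain counts within 1.5 times. Adding RefSeq starts, tRNA genes included, after seeing the data, gave 1.39% and left regions of 71 of the 95 chains. Those without regions included all 4 at tRNA genes and those near Kdm6b and Tnrc18.

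A chain was near 8 of the listed genes and 1.00% of all genes. A reach of 100 kb gave 13 and 1.87%, the stricter list 4 and 0.284%, 2500 bp 3 and 0.322%, and 10 kb 26 and 2.53%. RefSeq starts gave 5 and 0.774%, replicate 2 alone 11 and 1.73%, and replicate 1 alone 40 and 6.402%. The count mostly moved with the share over all genes. In each of these settings, however, the share of the listed genes was above that of all genes. It was 3.00% against 1.00% in the main setting, 1.12% against 0.322% at 2500 bp and 9.74% against 2.53% at 10 kb. This difference was not tested. The ratio of median signals, 1.21 in replicate 1 and 1.31 in replicate 2, was 1.34 and 1.43 without the 3 largest chains and 1.44 and 1.54 without the 7 weak ones. The ratio of footprint shares, 0.914 and 0.954, was 0.787 and 0.890 per 100 bp, 0.964 and 1.01 without the 3 largest chains, and 0.977 and 1.04 without the weak ones. The AP-1 difference of -2.37 percentage points was -1.06 over whole regions and 0.0553 with the stricter list. Of the 5 chains of highest summed signal, 4 stayed without replicate 1 and 3 without replicate 2. No paired analysis was possible because there is 1 group and the results come from no test. Weak members rest on few signal steps, so that shape and rank within the weak chains are least certain.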
